A study of Mus musculus with 4 samples.

Results

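Respiratory complex I transcripts were described in regulatory T cells (Tregs) from the liver of young mice. Tregs are a Foxp3-expressing branch of CD4 T cells that keeps other immune cells in check. The members are all genes of the deposited table whose symbol starts with NDUF, 45 of 24452 listed genes. They comprise 36 complex I subunits, 7 assembly factors (symbols starting with NDUFAF) and the pair Ndufa4 and Ndufa4l2, which carry NDUF names but belong to complex IV by later assignment. The groups were Altre-WT and Altre-KO, named for presence or knockout of Altre, which is transcribed in Tregs into a non-coding RNA, with 2 RNA-sequencing libraries each. The labels name liver as tissue and young mice in both groups, and give no age, sex, allele or number of animals. Nothing states that libraries of the same genotype are different animals, so p-values measure the spread between these samples, which may be technical. Levels are in CPM, reads of a gene scaled to a total of 1000000 over all listed genes of a library.

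Complex I is the entry point of the respiratory chain. It takes electrons from NADH, passes them along iron-sulphur clusters to ubiquinone and pumps protons across the inner mitochondrial membrane. It has an L shape: a matrix arm, made of a module that oxidises NADH (N) and a module that reduces quinone (Q), and a membrane arm, here split into its proximal and distal parts. Most subunits are encoded in the nucleus and imported, and a set of core subunits encoded by mitochondrial DNA was not analysed here. Assembly factors build and modify intermediates of the complex and are absent from the finished enzyme. In Tregs, respiration is known to support suppressive function.

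Sequence around the starts of these genes is shown because nuclear respiratory genes share known promoter motifs. Most members lay above their own mean in the same library, described further on, and whether the motifs bear on this was not tested. RefSeq promoter windows (build GRCm38.p6, 250 bases before to 50 after a start) matched 32 of the 36 subunits and 6 of the 7 assembly factors. On both strands, 3 motifs were searched. For the respiratory factor NRF1 it was GCGCA, then any base, then GCGC. For the ETS factor GABP it was CCGGAAG, and for YY1, a zinc finger factor, AAGATGGC. The NRF1 letters were in the windows of 7 of 32 subunit genes (21.9%), against 12.9% of the 8063 tested genes with a window. They were also in those of 2 of 6 assembly factor genes (33.3%). The YY1 letters were also in 7 of 32 (21.9%), against 5.98%, and in 0 of 6 assembly factor genes. The GABP letters were in 4 of 32 (12.5%), against 22.5%, and in 1 of 6 assembly factor genes (16.7%). At least 1 motif was found in 17 of 32 subunit genes (53.1%) and in 3 of 6 assembly factor genes, and in 36.004% of tested genes. These shares describe letters, with no test, and a match is not a bound site.

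All 7 YY1 matches lay 23 to 39 bases after the start, on the gene's own strand, and in all 7 the ATG inside the motif was an annotated start codon in GENCODE M21. They are given as 30-base sites, 5′ to 3′ on the gene's strand, with the motif in capitals.
Ndufs4, chr13:114388045-114388074, minus strand: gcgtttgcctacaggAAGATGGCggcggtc
Ndufs6, chr13:73328433-73328462, minus strand: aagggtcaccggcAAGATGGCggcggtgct
Ndufs7, chr10:80249463-80249492, plus strand: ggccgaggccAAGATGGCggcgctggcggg
Ndufa3, chr7:3617385-3617414, plus strand: cgccaagaacAAGATGGCcgggagtaagta
Ndufa9, chr6:126849096-126849125, minus strand: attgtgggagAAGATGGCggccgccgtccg
Ndufb8, chr19:44555393-44555422, minus strand: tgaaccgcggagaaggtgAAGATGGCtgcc
Ndufc1, chr3:51408914-51408943, minus strand: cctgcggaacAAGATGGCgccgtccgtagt

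The subunit Ndufs6 was the member with both NRF1 and YY1 letters in its window. Its NRF1 match starts 16 bases before the start and reads on the reverse strand. It is shown with those of Ndufa11 (60 bases before the start), Ndufa8 (30 bases, reverse strand) and Ndufb4, which held 3 matches, the nearest 22 bases before the start. The motif is again in capitals.
Ndufs6, chr13:73328479-73328508, minus strand: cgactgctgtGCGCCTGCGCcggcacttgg
Ndufa11, chr17:56717692-56717721, plus strand: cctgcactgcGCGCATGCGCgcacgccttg
Ndufa8, chr2:36049349-36049378, minus strand: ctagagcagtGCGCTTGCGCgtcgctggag
Ndufb4, chr16:37654371-37654400, minus strand: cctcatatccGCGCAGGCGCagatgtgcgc

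Estimated reads on listed genes numbered 1828770 to 3266123 per library, and 1 read was worth 0.306 to 0.547 CPM. The share of a library's reads on listed genes was 32.8% in knockout replicate 1 and 18.8% to 21.5% in the other libraries. Cd4 lay between 527 and 547 CPM, and Foxp3 at 160.4 and 140.5 CPM in Altre-WT and 79.5 and 162.4 CPM in Altre-KO. Summed T cell and Treg markers (10 genes, with these 2) were at 3772 and 3843 CPM in Altre-WT and 3857 and 3730 CPM in Altre-KO. Altre itself was not analysed here, and genotypes are those of the labels. Summed hepatocyte markers reached at most 2.54 CPM over 8 genes, with Alb at 0 in all libraries. Summed myeloid markers (8 genes) were at 150.4 and 253 CPM in Altre-WT and 244 and 135.5 CPM in Altre-KO. B cell markers (4 genes) were at 27.1 to 38.3 CPM. CD8 T cell and natural killer cell markers (6 genes) summed to 28.8 to 41.6 CPM. Endothelial and stellate markers (8 genes) summed to 191.9 and 225.3 CPM in Altre-WT and 175.8 and 214.2 CPM in Altre-KO. Most of that sum was Pecam1, at 172.2 to 215.2 CPM. In bulk samples, fewer cells of a type and less RNA per cell cannot be told apart.

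Of the 45 members, 41 passed the filter on low values (at least 10 reads at the median depth, 4.22 CPM, in at least 2 libraries): 33 subunits, all 7 assembly factors and Ndufa4. They rested on 4 to 544 estimated reads per library. Levels of different genes are compared per kb of annotated exons. The median over tested members was 21.6 CPM per kb. By this measure Ndufa2 of the N module was highest, at 102.2 CPM per kb (range over the 4 libraries 89.7 to 111), followed by Ndufa13 of the proximal membrane arm, also known as Grim19, at 80.1 (68.0 to 91.9), and these ranges overlap. Estimated reads of Ndufa13 were fractional (204.8, 211.8, 375.4 and 201.0), and it shares 375 of 1251 exonic bases with Tssk6 on the opposite strand, so its place is uncertain. Exons of 19 of the 45 members overlap those of another annotated gene on either strand. Counted per kb of the longest transcript instead, Ndufa7 led, since its annotated isoforms span 1828 exonic bases but at most 640 in 1 transcript.

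Assembly factors were at lower levels than most subunits. Their median level was 7.43 CPM per kb, against 26.5 CPM per kb for the 33 tested subunits, and 28 of these subunits had a mean above that of Ndufaf1, the highest factor (11.5 CPM per kb). With the longest transcript as length the medians were 7.98 and 37.1 CPM per kb.

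**Figure D1:**
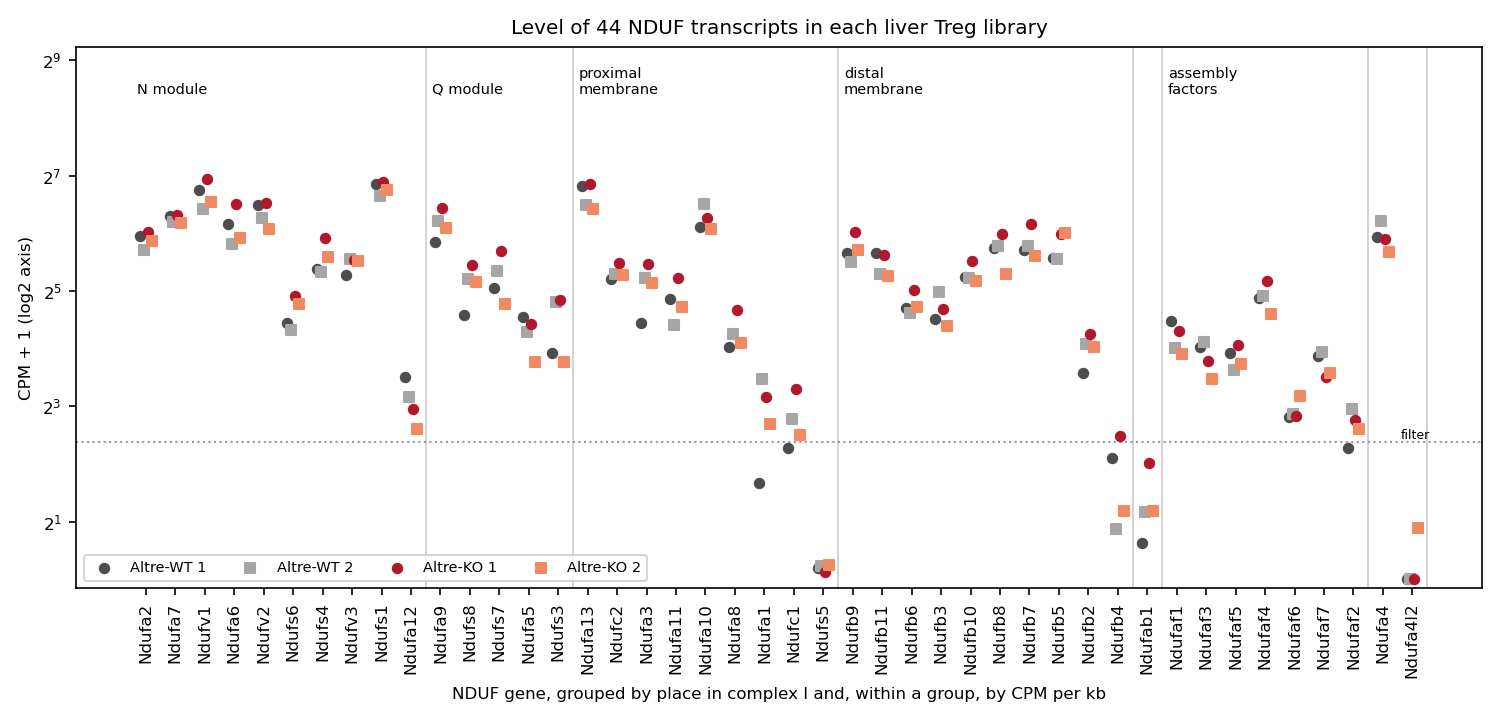
Level of 44 of the 45 NDUF transcripts in each library, as CPM + 1 on a log2 axis (4 points per gene, dark and light grey for Altre-WT, red and orange for Altre-KO, circles for replicate 1 and squares for replicate 2), grouped by place in the complex, with Ndufab1 alone between the distal membrane arm and the assembly factors, and Ndufa4 and Ndufa4l2 at the right. The dotted line is the filter of 4.22 CPM, and Ndufs5, Ndufab1, Ndufb4 and Ndufa4l2 lie mostly or wholly under it.

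The comparison of knockout with wild type asks which of these transcripts differ when Altre is missing. No subunit and no assembly factor passed the test, and log2 fold changes (knockout minus wild type) lay between -0.56 and 0.46. Among the subunits 24 of 33 had a log2 fold change above 0, with a median of 0.14. Among the assembly factors 3 of 7 did, with a median of -0.0027, a value so near 0 that it turned positive under other scalings (0.0148 with TMM factors, 0.0044 with median-of-ratios factors). Over all 10486 genes tested, 47.9% lay above 0 and the median was -0.013. The members and these lists were chosen with earlier results of the same data known, so their counts are a description.

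By limma with Benjamini-Hochberg adjustment over all tested genes, 0 of 41 members had an adjusted p under 0.05, where 0.0381% of all tested genes did. At an unadjusted p under 0.05 there were likewise 0, against 3.66% of tested genes. The limma adjusted p was 0.999 for every tested member, all 41 limma 95% intervals held 0, and over the alternatives tried the lowest adjusted p of any member was 0.643, without knockout replicate 2. The authors' deposited table gave every member an adjusted p of 1.

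**Figure D2:**
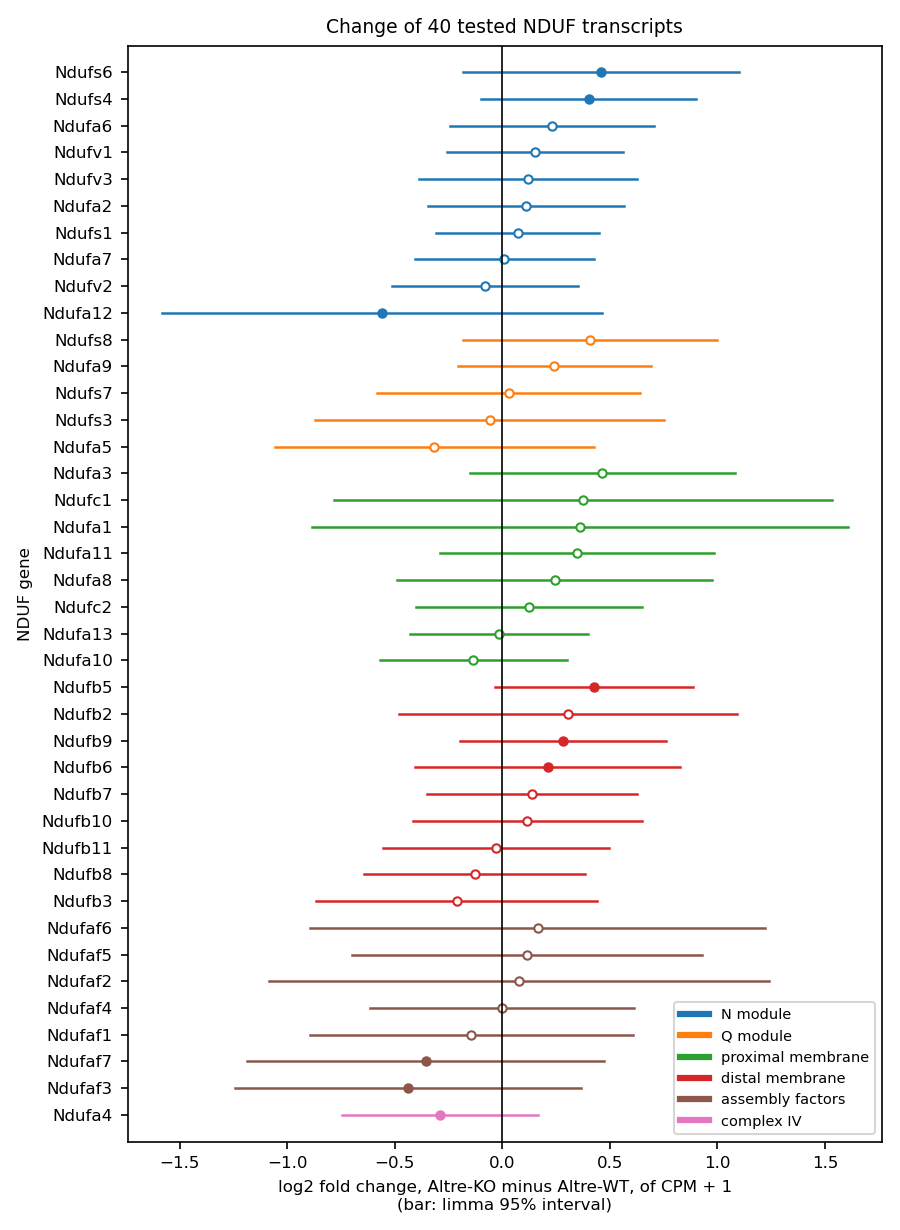
Log2 fold change of 40 of the 41 tested NDUF transcripts, Altre-KO minus Altre-WT on the log2(CPM + 1) scale, with limma 95% intervals, coloured by place in the complex; filled points mark genes whose genotypes do not overlap. Every interval crosses 0, with Ndufb5 (-0.03 to 0.89) nearest to leaving it.

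In 5 of 33 subunits (Ndufb5, Ndufs4, Ndufs6, Ndufb9 and Ndufb6) both knockout libraries lay above both wild-type libraries, as in 14.7% of all tested genes, and in 1 (Ndufa12) both lay below, as in 16.1%. With 5 of 33 the share of subunits that lay above was close to this background. These 6 are given in full.

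Ndufb5, an accessory subunit of the distal membrane arm (chromosome 3, 32736990 to 32751566, GRCm38), had the smallest p of the members. It was at 46.5 and 46.2 CPM in the wild-type libraries and at 62.2 and 63.1 CPM in the knockout libraries. Replicates of a genotype were closer to each other than in any of the other 5, and the genotypes were apart. Its log2 fold change was 0.43 (SE 0.22, 95% interval -0.03 to 0.89, limma unadjusted p = 0.068), and it ranged from 0.42 to 0.44 with each library left out in turn. Ndufb5 shares 616 exonic bases with Mrpl47 on the opposite strand. Whether counting used strand is not given in the sources used here, so reads from the shared part cannot be told apart. Mrpl47 itself was at 3.98 to 7.20 CPM.

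Ndufs4 (chromosome 13, 114287795 to 114388258) and Ndufs6 (chromosome 13, 73319838 to 73328542) are accessory subunits of the N module, both needed for a stable NADH-oxidising end. Ndufs4 was at 40.5 and 39.1 CPM in Altre-WT and at 59.4 and 47.0 CPM in Altre-KO (log2 fold change 0.40, SE 0.24). Ndufs6 was at 20.8 and 18.9 CPM in Altre-WT and at 29.1 and 26.2 CPM in Altre-KO (log2 fold change 0.46, SE 0.31). In both, knockout replicate 1 was the highest library. Without it, Ndufs4 was at 0.24 and Ndufs6 at 0.39. Both have the YY1 letters at their start codon, as shown above. In the other subunits with these letters (Ndufs7, Ndufa3, Ndufa9, Ndufb8 and Ndufc1) the genotypes overlapped. Ndufs6 has a pseudogene copy, Ndufs6b, at 97.5% identity over 244 bases.

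Ndufb9 (chromosome 15, 58933756 to 58939488) and Ndufb6 (chromosome 4, 40270591 to 40279421) belong to the distal membrane arm. Ndufb9 was at 49.8 and 44.1 CPM in Altre-WT and at 63.7 and 51.2 CPM in Altre-KO (log2 fold change 0.28, SE 0.23). Ndufb6 was at 25.1 and 23.5 CPM in Altre-WT and at 31.5 and 25.4 CPM in Altre-KO (log2 fold change 0.21, SE 0.30). In both, knockout replicate 2 lay just above the higher wild-type library, and the log2 fold changes without knockout replicate 1 were 0.13 and 0.06. Ndufb6 shares 257 of its 659 exonic bases with Smim27 on the opposite strand, and Ndufb9 shares 201 of 1031 with Gm49356 on the same strand, so their values are uncertain.

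Ndufa12, an N module subunit placed late in assembly (chromosome 10, 94198720 to 94221443), went the other way. It was at 10.4 and 7.99 CPM in Altre-WT and at 6.74 and 5.08 CPM in Altre-KO (log2 fold change -0.56, SE 0.49). This rested on 12 to 22 estimated reads per library. A processed pseudogene, Gm15920, matches Ndufa12 at 99.55% over 222 bases, so its value is uncertain.

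Among the 7 nuclear-encoded core subunits are those that carry the flavin and the iron-sulphur clusters or form the quinone site. The 7 had a median log2 fold change of 0.07, and 5 of 7 were above 0. Without knockout replicate 1 the median was -0.05, and 3 of 7 were above 0. All 7 were highest in knockout replicate 1, as were 30.7% of all tested genes. In the N module, Ndufv1, which binds NADH and flavin, was at 107.2 and 84.9 CPM in Altre-WT and at 121.9 and 92.3 CPM in Altre-KO. Its partner Ndufv2 was at 89.1 and 76.1 CPM against 91.2 and 66.5 CPM. Ndufs1, with the iron-sulphur clusters between them and the Q module, was at 114.8 and 98.8 CPM against 117 and 107.1 CPM. In each of these 3 genes the genotypes overlapped, with log2 fold changes of 0.15, -0.08 and 0.07.

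In the Q module, Ndufs8, which carries iron-sulphur clusters, was at 23.0 and 36.1 CPM in Altre-WT and at 42.9 and 34.7 CPM in Altre-KO (log2 fold change 0.41, SE 0.29). Its knockout values were nearest to wild-type replicate 2, and the fold change was 0.09 without wild-type replicate 1.
Ndufs3, which helps to hold the module together, was at 14.2 and 26.9 CPM in Altre-WT and at 27.6 and 12.7 CPM in Altre-KO. Ndufs7, with the last iron-sulphur cluster before quinone, was at 32.3 and 39.5 CPM in Altre-WT and at 50.5 and 26.2 CPM in Altre-KO. For these 2 genes the difference within a genotype was larger than that between genotypes, with log2 fold changes of -0.06 and 0.03. Between the knockout libraries Ndufs3 differed by 1.06 and Ndufs7 by 0.92 on the log2(CPM + 1) scale, replicate 1 being higher. Ndufs3 has a pseudogene copy, Gm12251, at 99.2% identity over 376 bases.

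By part of the complex, 8 of 10 N module subunits, 4 of 6 Q module subunits, 6 of 8 tested proximal membrane subunits and 6 of 9 tested distal membrane subunits had a log2 fold change above 0. The medians were 0.11, 0.12, 0.29 and 0.14. Without knockout replicate 1 they were -0.02, -0.18, -0.0039 and -0.06, all below 0. The N module was also below 0 without wild-type replicate 2 (-0.02, with 4 of 10 above 0), and the Q module without wild-type replicate 1 (-0.03, with 3 of 6 above 0). The quartiles of these 4 groups overlapped, and no test of a difference between them was made. The wild-type libraries differed by part: 9 of 10 N module subunits were higher in replicate 1 (median difference 0.22 on the log2 scale), while 2 of 6 Q module and 2 of 8 proximal membrane subunits were (medians -0.32 and -0.31). Among all tested genes 47.6% were higher in wild-type replicate 1.

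The subunits differed most between the knockout libraries. Of 33 tested subunits, 32 were higher in knockout replicate 1 than in replicate 2, with a median difference of 0.34 on the log2(CPM + 1) scale, where 56.0% of all tested genes were higher in replicate 1 with a median of 0.057. All 16 subunits of the matrix arm were among them, and Ndufb5, at -0.02, was the exception. As the median of each gene's log2 level minus its mean over the libraries, the subunits stood at -0.10 and -0.04 in wild type and at 0.27 and -0.08 in knockout. Knockout replicate 2 thus lay between the wild-type libraries and replicate 1 above all 3. Without knockout replicate 1 the median log2 fold change of the subunits was -0.03, with 16 of 33 above 0, and without knockout replicate 2 it was 0.36, with 30 of 33 above 0. Knockout replicate 1 was also the library with the largest share of its reads on listed genes, 32.8%, and with the most reads on them. Its Foxp3 level was the lowest of the 4, at 79.5 CPM, but T cell and Treg markers went both ways in it. Foxp3, Cd3e, Il2ra and Ikzf2 were lowest in this library, and Cd3d, Cd3g, Tnfrsf18 and Tnfrsf4 highest. The sum of the 10 markers was highest in it, at 3857 CPM. The part of these features in the result was not tested.

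**Figure D3:**
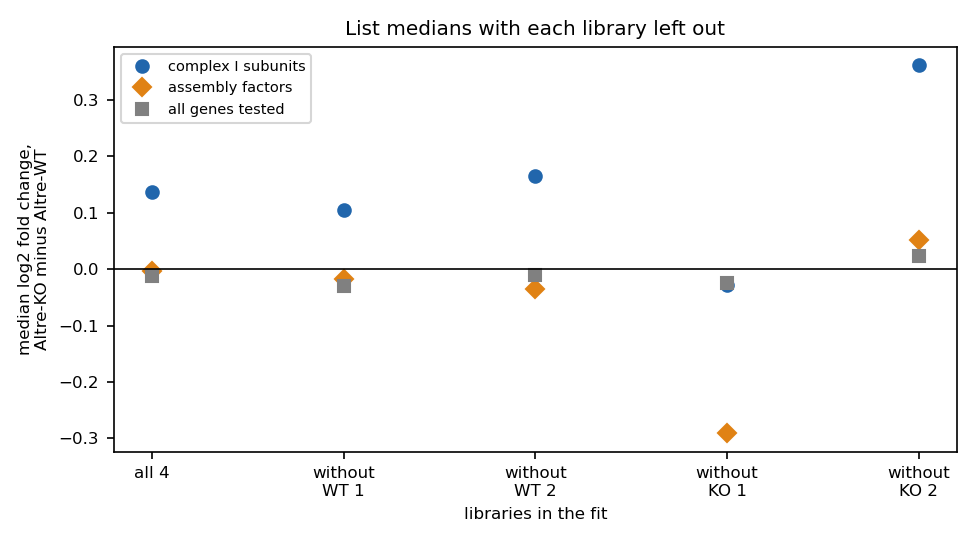
Median log2 fold change (Altre-KO minus Altre-WT) of 33 complex I subunits, 7 assembly factors and all tested genes, with all 4 libraries and with each left out. The subunit median moves from 0.14 to -0.03 without knockout replicate 1 and to 0.36 without knockout replicate 2, and the median of all genes stays between -0.03 and 0.02.

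Related lists also stood higher in knockout replicate 1 than in replicate 2. In complexes II to V, 30 of 38 tested genes were higher in knockout replicate 1 than in replicate 2 (median 0.31), and among mitochondrial ribosomal proteins 62 of 76 were (median 0.31). Their median log2 fold changes between genotypes were 0.03 and 0.02, against 0.14 for complex I subunits, and without knockout replicate 1 they were -0.09 and -0.13. Summed over the listed members, complex I subunits made up 35.97% and 36.41% of the CPM of complexes II to V in wild type and 38.63% and 37.23% in knockout. These values do not overlap between genotypes, and the gap between the knockout libraries is larger than that between the nearest libraries of the 2 genotypes.

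Among the assembly factors, 2 of 7 (Ndufaf3 and Ndufaf7) were lower in both knockout libraries than in both wild-type libraries, as were 16.1% of all tested genes, and 0 of 7 were higher in both. The median of the 7 was -0.29 without knockout replicate 1 and 0.05 without knockout replicate 2. Ndufaf3 (chromosome 9, 108565537 to 108567434), which joins the Q module early in its assembly, was at 15.3 and 16.4 CPM in Altre-WT and at 12.9 and 10.2 CPM in Altre-KO (log2 fold change -0.44, SE 0.39). Ndufaf7 (chromosome 17, 78937136 to 78948052), a mitochondrial methyltransferase, was at 13.7 and 14.3 CPM in Altre-WT and at 10.4 and 11.01 CPM in Altre-KO (-0.36, SE 0.40). They rested on 24 to 42 and 25 to 34 estimated reads per library, and their intervals were -1.24 to 0.37 and -1.19 to 0.47. Their log2 fold changes ranged from -0.59 to -0.28 for Ndufaf3 and from -0.39 to -0.32 for Ndufaf7 with each library left out.

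The other 5 factors overlapped between genotypes. Ndufaf4, the partner of Ndufaf3, was at 28.43 and 29 CPM in Altre-WT and at 35.2 and 23.3 CPM in Altre-KO. Ndufaf1, part of the complex that builds the proximal membrane arm, was at 21.3 and 15.1 CPM against 18.7 and 14.0 CPM. Their log2 fold changes were -0.0027 and -0.14.
Ndufaf5, which hydroxylates Ndufs7, was at 14.2 and 11.3 CPM in Altre-WT and at 15.6 and 12.3 CPM in Altre-KO. Ndufaf6, needed for a membrane subunit made in mitochondria, was at 6.02 and 6.31 CPM against 6.12 and 8.04 CPM. Ndufaf2, which sits in a late intermediate at the place of Ndufa12, was at 3.83 and 6.73 CPM against 5.82 and 5.08 CPM. The log2 fold changes of these 3 were 0.12, 0.16 and 0.08, and the widest limma interval, that of Ndufaf2, reached from -1.09 to 1.24. Ndufaf2 shares 1955 exonic bases out of 2978 with an opposite-strand gene, B230220B15Rik, and reads from the shared part cannot be told apart. A stretch of 203 bases also matches Olfr1055 at 98.0%.

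Set against each other, subunits stood higher relative to the 7 NDUFAF assembly factors in both knockout libraries than in both wild-type libraries. Summed over all 36 subunits and 7 factors, the levels were 1561 and 1521 CPM against 102.8 and 99.2 CPM in Altre-WT, and 1887 and 1490 CPM against 104.7 and 83.8 CPM in Altre-KO. The ratio of the sums was 15.2 and 15.3 in wild type and 18.0 and 17.8 in knockout, and it does not depend on how a library is scaled. In this ratio the replicates of a genotype were close and the genotypes were apart, but the knockout libraries reached it differently. In knockout replicate 1 the subunit sum was the highest of all libraries, and in knockout replicate 2 both sums were the lowest. From 188, 236, 342 and 198 reads on the factors, the exact binomial 95% intervals of the ratios, which cover counting error only, were 13.1 to 17.7 and 13.4 to 17.6 in wild type and 16.2 to 20.2 and 15.4 to 20.6 in knockout. The intervals overlap between genotypes, while each ratio lies outside both intervals of the other genotype. With 2 libraries against 2, no exact permutation test can go below p = 0.33, and no p is given for this sum over chosen genes.

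The higher ratio in knockout was also seen for other mitochondrial genes over the same 7 factors. Complexes II to V over assembly factors gave 42.2 and 42.1 in wild type and 46.6 and 47.7 in knockout, and mitochondrial ribosomal proteins 21.04 and 21.16 against 23.62 and 23.55. All 3 ratios share their denominator. As medians, the subunits lay 0.14 above the factors in log2 fold change, and between 0.12 and 0.31 above them with each library left out. Since the library medians of this difference do not overlap between genotypes (-0.19 and -0.05 against 0.15 and 0.06), its direction with a library left out is no further sign of stability. The 12 listed assembly genes without an NDUF name, described further on, summed to 300.8 and 317.8 CPM in Altre-WT and 353.6 and 298.5 CPM in Altre-KO. Their median log2 fold change was 0.16, near that of the subunits. The contrast given here is thus one with the 7 NDUFAF genes, and no ratio over all assembly genes together was computed.

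**Figure D4:**
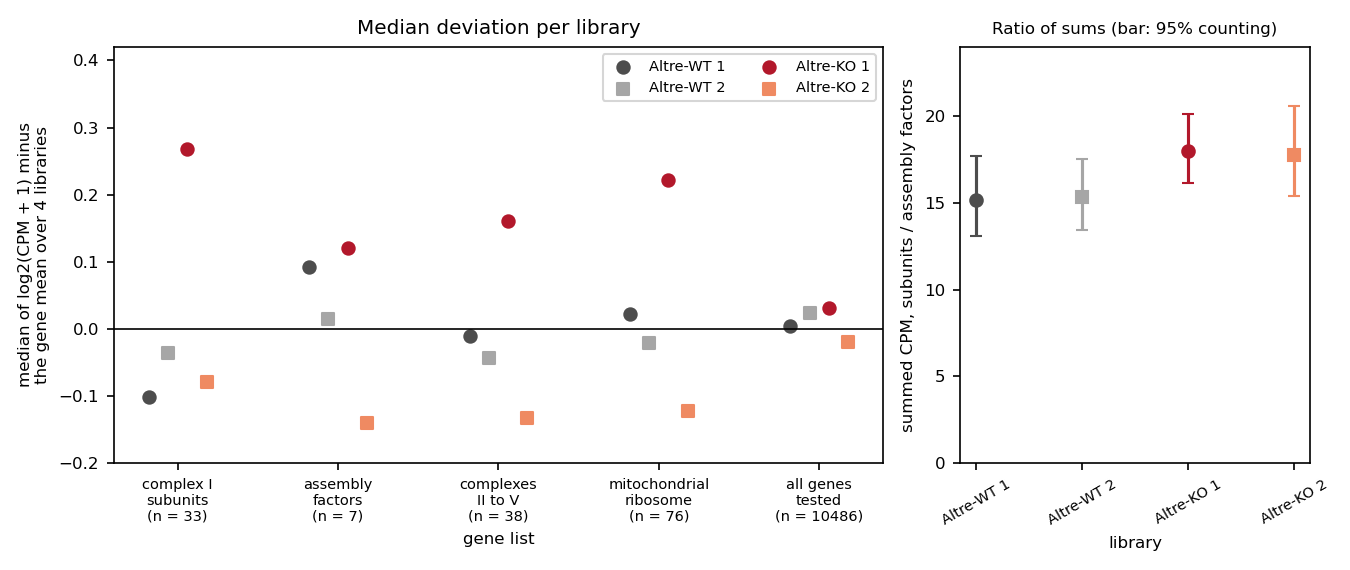
Left, median over a list of each gene's log2(CPM + 1) minus its mean over the 4 libraries, for each library and 5 lists; right, summed CPM of 36 subunits over that of 7 assembly factors per library, with exact binomial 95% intervals for counting error. Knockout replicate 1 stands highest for complex I subunits (0.27), and the ratio is 15.2 and 15.3 in wild type and 18.0 and 17.8 in knockout.

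Ndufa4, now assigned to complex IV, was at 60.1 and 73.6 CPM in Altre-WT and at 58.5 and 50.4 CPM in Altre-KO (log2 fold change -0.29, SE 0.22, interval -0.74 to 0.17). Both knockout libraries lay below both wild-type libraries, by 1.67 CPM at the nearest. Its hypoxia-induced relative Ndufa4l2 had 2 estimated reads in knockout replicate 2 and 0 in the other libraries, where a count of 0 allows up to 0.92 to 1.64 CPM.

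Besides Ndufa4l2, the subunits Ndufs5, Ndufab1 and Ndufb4 did not pass the filter. Ndufab1, the acyl carrier protein bound to both arms, was at 0.55 and 1.26 CPM in Altre-WT and at 3.06 and 1.27 CPM in Altre-KO, and Ndufb4 of the distal membrane arm at 3.28 and 0.84 CPM against 4.59 and 1.27 CPM. Ndufs5, of the proximal membrane arm, was at 0.09 to 0.19 CPM, less than 1 read in every library. All 3 have an annotated processed pseudogene with at least 95% identity over at least 200 bases, as do 6 of the 33 tested subunits. The closest copies were Gm4459 for Ndufab1 (99.8% over 468 bases), Ndufb4c for Ndufb4 (100% over 390 bases) and BC002163 for Ndufs5 (99.4% over 319 bases).

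Of these copies, BC002163 is listed in the table, and it was named after its values were seen. It was at 7.51 and 7.82 CPM in Altre-WT and at 21.03 and 18.87 CPM in Altre-KO. The genotypes did not overlap (log2 fold change 1.27, SE 0.40, limma unadjusted p = 0.0041, adjusted p = 0.999). Its estimated reads were fractional (13.7, 18.6, 68.7 and 44.6), as were those of Ndufs5 (0.3, 0.4, 0.3 and 0.4). Whether reads of Ndufs5 were assigned to BC002163 was not tested, and the separate values of both are uncertain.

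Assembly genes without an NDUF name were taken from a fixed list, of which 11 of 12 listed genes were tested. Of these, 8 were above 0 in log2 fold change and 3 below, with a median of 0.16, and 0 passed the test in either direction. Without knockout replicate 1 the median was -0.01, with 5 of 11 above 0, and without wild-type replicate 1 it was 0.08. The 3 with the smallest p were Tmem186 and Ecsit, partners of Ndufaf1 in building the membrane arm, and Foxred1, an oxidoreductase of late assembly. Tmem186 was at 33.4 and 37.4 CPM in Altre-WT and at 44.7 and 45.7 CPM in Altre-KO, and Ecsit at 16.4 and 19.3 CPM against 22.0 and 24.98 CPM. Foxred1 was at 38.8 and 38.2 CPM against 33.7 and 29.6 CPM. Over the whole list, both knockout libraries lay above both wild-type libraries in 3 genes (Tmem186, Ecsit and Timmdc1) and below them in 1 (Foxred1), where 14.7% and 16.1% of all tested genes did. Timmdc1, named for this count after its values were seen, was at 15.9 and 17.7 CPM in Altre-WT and 24.2 and 18.6 CPM in Altre-KO. As a whole the list stood nearer to the subunits than the NDUFAF factors did (medians 0.16, 0.14 and -0.0027).

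Transcription factors and coactivators of nuclear respiratory genes went no single way. Of 8 tested out of 9 listed, 6 were above 0 in log2 fold change, with a median of 0.01, and 0 passed. The gene under the filter was Ppargc1a, a coactivator, named here after its values were seen. It was at 3.83 and 4.20 CPM in Altre-WT and at 0 and 1.69 CPM in Altre-KO, on 0 to 10 estimated reads per library. Both knockout libraries lay below both wild-type libraries, but so few reads leave its values uncertain. The median of the 8 tested genes lay between -0.02 and 0.09 with each library left out. The 3 with the smallest p were Pprc1, a coactivator, Esrra, an orphan nuclear receptor, and Nrf1. Pprc1 was at 31.2 and 29.9 CPM in Altre-WT and at 13.8 and 33.5 CPM in Altre-KO, so the low value was that of knockout replicate 1, where the subunits were highest. Esrra was at 43.8 and 43.7 CPM in Altre-WT and at 53.0 and 49.5 CPM in Altre-KO, and Nrf1 at 97.3 and 118.1 CPM against 120.6 and 116 CPM. Yy1, whose motif is shown above, was at 129.6 and 114.3 CPM in Altre-WT and at 123.1 and 121.9 CPM in Altre-KO, with no difference beyond the spread between replicates.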

How the data were processed

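RNA of liver Tregs was sequenced in 4 libraries, 2 per genotype, with an mRNA kit per the labels' protocols. Per the submitters' processing notes, the authors used STAR, cutadapt and DESeq2 and build mm10. The counter, the annotation and what each tool did were not given in the sources used here. A single table deposited by the authors holds RPM and CPM per library, and their mean CPM, log2 ratio, p-value and adjusted p-value, which entered only as a named alternative. The RPM carry an added 0.0001. Their smallest common step gave estimated reads per library, whole within 0.02 of a read for 93.2% to 93.9% of values under 200 reads and for 43 of 45 members. The main test used no count model. The binomial intervals of the ratios, limma-voom and the TMM factors rest on these estimated reads.

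Genes were tested with limma 3.58.1 (R 4.3.3, variance trend, 20.8 prior degrees of freedom) on log2(CPM + 1), with group as the only term, where at least 2 libraries reached 4.22 CPM. This left 10486 genes, over which p-values were adjusted. The fit was tested on simulated data. Log2 fold changes understate the change of low genes. Copies were searched with blastn 2.17.0, all 45 members matched GENCODE M21, and figures were drawn with matplotlib 3.10.9.

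The members and lists were chosen with earlier results of these data known. Named were subunits whose genotypes do not overlap, the core subunits, all NDUFAF genes, the pair assigned to complex IV, Ndufab1, the highest and lowest subunits per kb, members under the filter, and the 3 genes of smallest p in each list of other assembly genes and of transcription factors. 1 member is counted in the lists but not reported here. Alternatives covered pseudocount, filter, scaling (median of ratios, TMM computed in R, totals without ribosomal protein and top genes), limma-voom, the replicate block, each library left out and transcript length.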

Additional observations from a re-analysis of the deposited data

How the results depend on the processing

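No member passed an adjusted p of 0.05 by limma under any alternative. Over 29 named genes, 368 of 399 single-gene values kept their direction. So did the subunit median and its difference from the NDUFAF median under other pseudocounts, filters and scalings. A filter cannot change a gene's log2 fold change, so single-gene directions under other filters were fixed in advance. Scaling a whole library moves both medians nearly alike, so their difference could hardly change (0.1398 in the main fit, 0.14 and 0.1402 under scalings). With a mean of at least 20 CPM, 1 NDUFAF factor was left. The NDUFAF median is the value of Ndufaf4 and changed sign with it. With each library left out, the median log2 fold change of the subunits ranged from -0.0275 (without knockout replicate 1) to 0.3612 (without knockout replicate 2), that of the NDUFAF factors from -0.2908 to 0.0524, and their difference from 0.1212 to 0.3089. In the same fits, ranges that crossed 0 were -0.0366 to 0.1786 for Ndufs1, -0.0472 to 0.3498 for Ndufv1, -0.3049 to 0.1462 for Ndufv2, -0.5889 to 0.4709 for Ndufs3, -0.4298 to 0.4891 for Ndufs7, -0.2283 to 0.2009 for Ndufa13 and -0.016 to 0.2356 for Ndufa2. They were -0.3796 to 0.0897 for Ndufaf1, -0.2635 to 0.4149 for Ndufaf2, -0.2908 to 0.2853 for Ndufaf4, -0.046 to 0.2777 for Ndufaf5, -0.0088 to 0.3357 for Ndufaf6 and -1.0918 to 0.129 for Pprc1. Where a genotype kept 1 library, it was assumed to vary like the other. Ndufaf4, at -0.0027, turned positive with pseudocount 5 (0.0006), median-of-ratios factors (0.0044), TMM (0.0148), totals without ribosomal protein and top 20 genes (0.0153), limma-voom (0.027) and in the authors' deposited table (0.0266). Ndufa13, at -0.0137, turned positive with TMM (0.0044), those totals (0.0049) and limma-voom (0.0117). The causes were not tested. The median level of members was 21.6 CPM per kb of exons and 31.387 per kb of the longest transcript, which is shorter by construction.

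Deviations from the genotype mean correlated at r = -0.01 across genes between libraries with the same replicate number. With 2 libraries per genotype, the value for crossed numbers (0.01) is this value with its sign turned, not a separate comparison. A value near 0 cannot decide whether the numbers pair libraries. With the replicate block, 0 members passed, and 6 genes in all were called where 4 were without it. The medians stayed at 0.1371 and -0.0027 by construction, since the block cannot change a log2 fold change in this balanced design. The single-gene directions with the block, counted above, were likewise fixed in advance. Across the other alternatives between 2 and 16 of all tested genes were called, with 16 without wild-type replicate 2 and 14 without knockout replicate 2. At 4 to 544 reads per member and library, the median SE was 0.25 for subunits and 0.39 for NDUFAF factors on the log2 scale.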
